A study of Mus musculus with 6 samples.

Results

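The genes described here are cadherins, protocadherins, the FAT cadherins and the catenin-type proteins that bind cadherin tails, measured in B16F10 mouse melanoma cells by RNA-seq. They were chosen by symbol alone: CDH followed by a number, every PCDH gene, the alpha and delta catenins (CTNNA and CTNND), FAT1 to FAT4, plakoglobin (JUP) and the plakophilins PKP1 to PKP4. The rule found 92 of the 14915 genes of the deposited table. B16F10 is an established melanoma line from C57BL/6 mice. One group of 3 libraries was wild type (WT) and the other group of 3 carried ZBTB5-S127A, a serine-to-alanine substitution that blocks phosphorylation of the zinc finger protein ZBTB5. Both groups received TNFα, an inflammatory cytokine, together with limitation of amino acids, so the response to TNFα itself was not measured. The design text names 1 mutant cell line, and the sources used here do not say how many clones it stands for. The labels do not say that replicates were separate cultures, so the p-values cover the spread among these libraries, and that spread may be technical.

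Cadherins are calcium-dependent adhesion proteins that bind cadherins of the neighbouring cell. The tails of classical cadherins bind beta-catenin or plakoglobin and p120 (delta) catenin, and alpha-catenin links this complex to actin. Melanocytes in skin hold to keratinocytes mainly through E-cadherin (CDH1), and melanoma cells are known for low E-cadherin and high N-cadherin (CDH2). Protocadherins are a separate branch of the superfamily that does not bind beta-catenin. The clustered protocadherins are known from neurons, where each cell uses a few alternative first exons, each with its own promoter and its own extracellular domain. In the alpha and gamma clusters these first exons are spliced to shared constant exons.

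Levels are in TPM, which corrects for transcript length, so genes may be compared with each other on it. Read depth cannot be recovered from TPM and is unknown. The WT columns summed to 863992 ± 903 TPM (SD, n = 3) and the S127A columns to 831872 ± 1326 TPM. ZBTB5 itself went from 15.5 ± 0.54 TPM to 8.90 ± 0.569 TPM in the mutant, a level that does not show the substitution. The labelled melanoma identity was checked against 7 melanocyte markers (PMEL, MLANA, TYR, TYRP1, DCT, MITF and SOX10). Their summed level was 14911 to 15194 TPM over the WT libraries and 26.8 to 32.4 TPM over the S127A libraries, so the S127A libraries nearly lacked the melanocyte markers. Pearson correlations between libraries, across the tested genes on log2(TPM + 1), were 0.998 within each group and 0.676 to 0.679 between the groups. Whether the S127A libraries came from the labelled line cannot be settled from these values, so a difference between the groups below is one between these libraries, and an effect of the substitution and a difference between cell lines cannot be told apart. Of 10 fibroblast markers 10 were listed, with a summed level of 16.2 to 17.2 TPM in WT and 301 to 313 TPM in S127A. Of 6 tested, 5 were higher and 1 lower, most of the sum was COL1A2, the lower gene was POSTN (7.79 ± 0.912 to 0.0667 ± 0.0231 TPM), and LUM and THY1 were listed at 0 in every S127A library. Of 10 epithelial markers 9 were listed, with sums of 0.12 to 0.44 TPM and 63.6 to 64.0 TPM. KRT18 made up 62.8 TPM of the latter, and CLDN4 was listed at 0 throughout. The 8 endothelial markers summed to at most 2.02 TPM in any library. Of 7 immune markers 5 were listed, with sums of 7.08 to 8.25 TPM and 48.6 to 51.2 TPM, of which CD14 made up 45.1 ± 1.77 TPM in S127A and PTPRC 0.0567 ± 0.0404 TPM. Of 8 neural and glial markers 7 were listed, and the sums were 260 to 275 TPM and 8.70 to 10.3 TPM. The part of these marker shifts in the results below was not tested, and a change in the mix of cells and a change in RNA per cell cannot be told apart in bulk RNA.

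A test needed a mean of at least 1 TPM over the 6 libraries, which 30 of the 92 members reached. Of the other 62, 6 were listed at 0 in every library and 56 lay between 0 and that mean. The member just inside the filter was PCDHB7 at a mean of 1.05 TPM, and the one just outside was PCDHGC5 at 0.973 TPM. Without that filter 41 of 86 members passed, 15 of them below the mean of 1 TPM, where 73.6% of all genes passed. Differences were tested with limma, adjusted over 10348 genes, on log2(TPM + 1), a scale that understates the change of low genes. Of the 30 tested members 15 were higher in S127A, 12 were lower and 3 did not pass. Over all tested genes 90.0% passed, 40.2% higher and 49.8% lower, so the share of members that changed is that of the background. Changes of at least 2-fold were found for 17 members, 11 higher and 6 lower, where the shares over all genes were 35.4%, 15.5% and 19.9%. The median log2 difference was 0.20 over the tested members and −0.12 over all tested genes. With TMM factors the medians were 0.29 and 0.00, so a change near 0.1 depends on the scaling. A member that was high in only 1 group had to differ once it had passed the filter, so these counts describe the members and support nothing further.

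**Figure D1:**
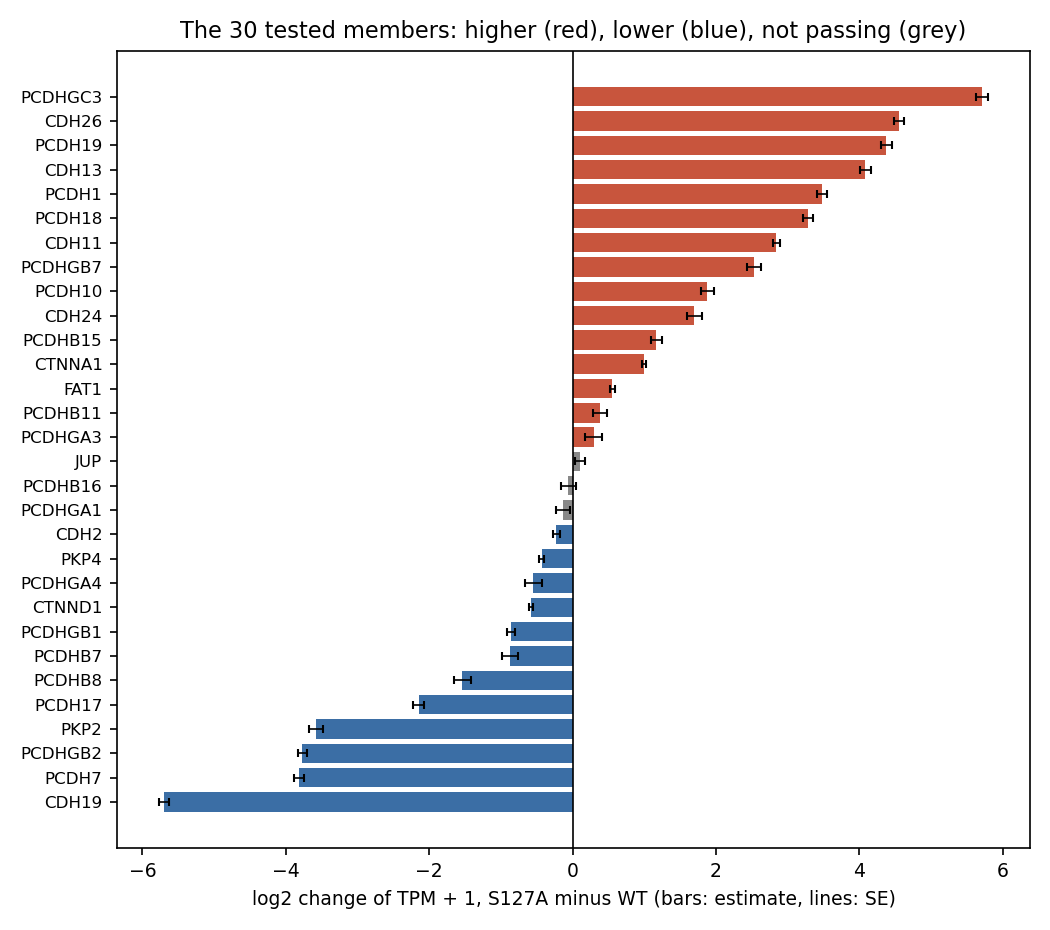
Log2 change of TPM + 1 (S127A minus WT, horizontal axis) as a bar for each of the 30 tested members, with its standard error as a line. PCDHGC3 (5.72) and CDH26 (4.55) lie at the upper end and CDH19 (−5.70) and PCDH7 (−3.82) at the lower end, while JUP, PCDHB16 and PCDHGA1 (grey) did not pass.

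Among the classical cadherins, N-cadherin was present in both groups, whereas CDH19 fell to near 0 and CDH11 was the most abundant cadherin transcript in S127A. CDH2 (N-cadherin, ENSMUSG00000024304.14, chromosome 18, 16588877 to 16809246, minus strand, mm10) is the cadherin of neural and mesenchymal cells. It read 74.0, 71.1 and 66.8 TPM in the WT libraries and 62.8, 59.3 and 58.4 TPM in the S127A libraries. The groups did not overlap, as was so for 90.2% of all tested genes, but the difference was small. CDH2 fell by 0.23 on the log2(TPM + 1) scale (standard error, SE, 0.0459, limma adjusted p = 6.95e-04), and by 0.11 with TMM factors (adjusted p = 0.0437). CDH1, E-cadherin, was near 0 in both groups, at 0.16, 0.08 and 0.14 TPM in WT and 0, 0.13 and 0.05 TPM in S127A. The placental cadherin CDH3 was at 0 in every WT library and did not exceed 0.09 TPM in S127A, and CDH4 and CDH15 stayed below 0.1 TPM in every library. No epithelial classical cadherin reached the level needed for a test in either group.

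CDH19 (ENSMUSG00000047216.8, chromosome 1, 110888326 to 110977584, minus strand), a type II cadherin of neural crest and Schwann cell precursors, read 56.9, 53.6 and 52.5 TPM in WT. In S127A it read 0.03, 0.17 and 0 TPM, so every S127A library was far below every WT library. The log2 change was −5.70 (SE 0.0751, limma adjusted p = 1.27e-13), the largest fall among the members. CDH11 (ENSMUSG00000031673.6, chromosome 8, 102632095 to 102785642, minus strand), a type II cadherin of osteoblasts and mesenchyme, went the other way. It read 14.9, 16.6 and 15.9 TPM in WT and 123, 119 and 116 TPM in S127A. The mean was 7.55-fold higher in S127A (2.84 log2 units, standard error 0.0474, adjusted p = 6.53e-13). The ratio of CDH11 to CDH2, which a single factor per library does not alter, was 0.224 ± 0.0204 in WT and 1.99 ± 0.0171 in S127A (SD, n = 3). CDH24, a further type II cadherin, read 1.21, 1.41 and 1.85 TPM in WT and 6.62, 7.59 and 6.95 TPM in S127A (1.70 log2 units). SOX10, a factor of the neural crest lineage, read 0.603 ± 0.116 TPM in the S127A libraries that lacked CDH19. Of the fibroblast markers, COL1A2 read 275 ± 6.56 TPM in the libraries where CDH11 was high, whereas POSTN, LUM and THY1 were at or near 0 there.

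**Figure D2:**
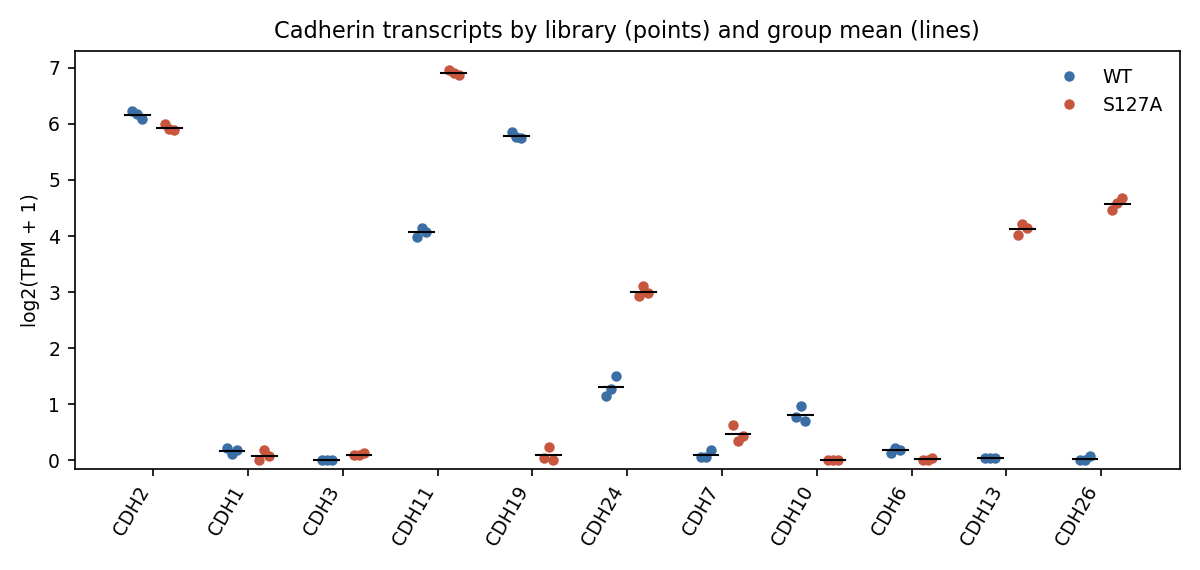
Level of 11 cadherin genes as log2(TPM + 1) in each WT (blue) and S127A (red) library, with the group mean as a black line. CDH2 lies near 6 in both groups, CDH19 falls from near 6 to near 0, and CDH11, CDH13 and CDH26 are higher in S127A.

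The other CDH genes on chromosome 1, CDH7 and CDH20, were low in both groups. CDH7 (109982431 to 110140157, plus strand) read 0.07 ± 0.052 TPM in WT and 0.39 ± 0.144 TPM in S127A, and CDH20 was at 0 in 5 of 6 libraries. CDH10, another type II cadherin, read 0.70, 0.96 and 0.62 TPM in WT and was listed at 0 in the 3 S127A libraries. The other type II genes CDH5, CDH6, CDH8, CDH9, CDH12, CDH18 and CDH22 did not exceed 0.16 TPM in any library. CDH5 is VE-cadherin, the cadherin of endothelium, and it was at 0.03 TPM in 1 library and 0 in the rest.

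T-cadherin and CDH26, which differ in structure from the classical cadherins, appeared in S127A. CDH13 (T-cadherin, ENSMUSG00000031841.19, chromosome 8, 118283733 to 119324921, plus strand) is held in the membrane by a lipid anchor, lacks a catenin-binding tail and acts as a receptor for adiponectin. It read 0.03 TPM in each WT library and 15.2, 17.7 and 16.6 TPM in the S127A libraries (4.08 log2 units, standard error 0.074, limma adjusted p = 1.26e-12). CDH26 (ENSMUSG00000039155.15, chromosome 2, 178430531 to 178487366, plus strand), a cadherin known from inflamed epithelium, was listed at 0, 0 and 0.05 TPM in WT. It read 21.1, 23.1 and 24.5 TPM in S127A (4.55 log2 units, standard error 0.0749, adjusted p = 5.88e-13). Both genes were thus near 0 in every WT library and well above 10 TPM in every S127A library. CDH16, CDH17 and CDH23 did not exceed 0.23 TPM in any library. The epithelial markers other than KRT18 were below 1 TPM in the libraries that held CDH26, with KRT8 at 0.493 ± 0.0404 TPM.

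Taking the 23 CDH genes as one pool, the summed level was 144 ± 4.88 TPM in WT and 227 ± 3.35 TPM in S127A. In WT, CDH2 made up 49.1% ± 0.851 of that sum, CDH19 37.8% ± 0.625 and CDH11 11.01% ± 0.847. In S127A the order was CDH11 at 52.6% ± 0.879, CDH2 at 26.5% ± 0.669, CDH26 at 10.1% ± 0.918 and CDH13 at 7.27% ± 0.595. The share of CDH2 was lower in S127A while its level was only slightly lower, since the sum was larger. The libraries of CDH26 and CDH13, neighbours in this order, did not overlap in S127A.

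**Figure D3:**
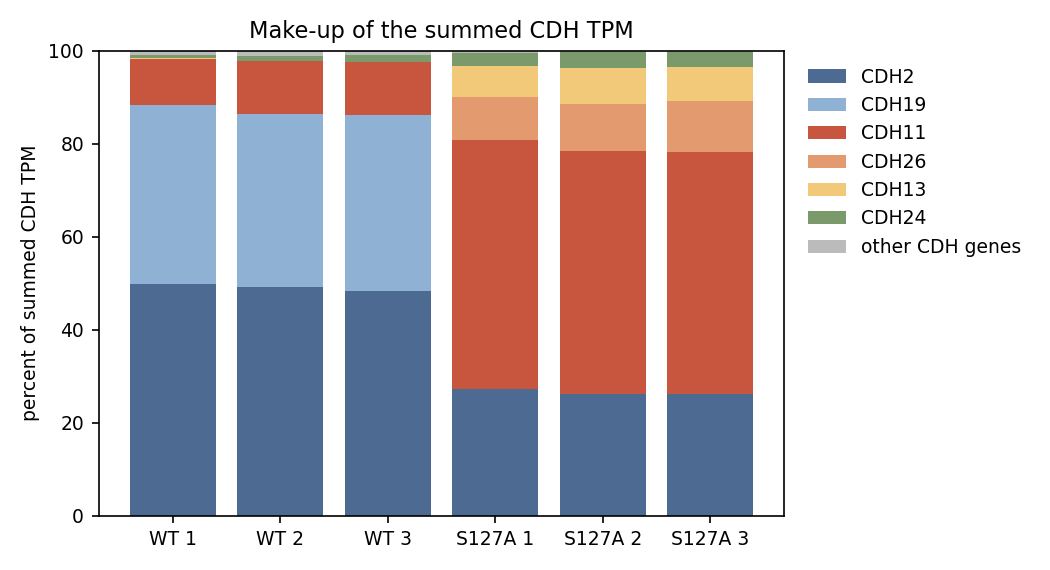
Share of the summed TPM of 23 CDH genes (vertical axis, percent) taken by each gene in each of the 6 libraries. The 3 WT libraries divide mainly between CDH2 and CDH19, and the 3 S127A libraries mainly between CDH11 and CDH2.

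The transcripts of the catenins, which link cadherin tails to actin, shifted relative to each other. CTNNB1, beta-catenin, is not among the 92 genes but joins the cadherin tail to alpha-catenin. It read 809, 782 and 824 TPM in WT and 187, 197 and 191 TPM in S127A, with a log2 change of −2.07 (SE 0.0314, limma adjusted p = 3.33e-13). CTNNA1 (alpha-E-catenin, ENSMUSG00000037815.7, chromosome 18, 35118859 to 35254779, plus strand), the link to actin, read 175, 168 and 171 TPM in WT. In S127A it read 347, 344 and 340 TPM, and the groups were far apart. Its mean was 2.004-fold higher (0.9987 log2 units, standard error 0.0284, adjusted p = 4.80e-11), just under the limit of 1 for a 2-fold change on the scale used. CTNND1 (p120-catenin, ENSMUSG00000034101.14, chromosome 2, 84600071 to 84650765, minus strand), which keeps cadherins at the cell surface, read 165, 164 and 164 TPM in WT and 112, 107 and 111 TPM in S127A. It fell by 0.58 (SE 0.0309, adjusted p = 1.05e-08). In GENCODE 61.2% of its exonic bases also belong to the annotated gene Gm28635 on the same strand, so reads from those bases could have been counted for either gene.

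The ratio of CTNNA1 to CTNNB1 was 0.213 ± 0.00524 in WT and 1.79 ± 0.0566 in S127A, so alpha-catenin transcripts were the fewer in WT and the more abundant in S127A. The ratio of CTNNA1 to CTNND1 went from 1.04 ± 0.0195 to 3.13 ± 0.0848. The other alpha and delta catenins, CTNNA2, CTNNA3 and CTNND2, which belong to neurons and heart, did not exceed 0.08 TPM in any library. Plakoglobin (JUP), the relative of beta-catenin that serves both adherens junctions and desmosomes, read 5.22, 4.59 and 5.10 TPM in WT and 5.18, 5.21 and 5.81 TPM in S127A. The groups overlapped, and the log2 difference of 0.10 did not pass (SE 0.0727, adjusted p = 0.211). Rescaling changed that call: TMM factors gave 0.20 (adjusted p = 0.0206), and under quantile normalization the difference was 0.36 (adjusted p = 7.45e-04).

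Plakophilins are armadillo proteins of desmosomes and cell borders. PKP4 (p0071), which is found at adherens junctions, read 60.8, 58.8 and 61.4 TPM in WT and 43.6, 44.8 and 45.0 TPM in S127A, a fall of 0.43 (SE 0.0367, limma adjusted p = 6.16e-07). PKP2 (ENSMUSG00000041957.15, chromosome 16, 16213318 to 16272712, plus strand), the plakophilin of heart and simple epithelia, read 17.1, 16.3 and 17.4 TPM in WT. It read 0.67, 0.29 and 0.58 TPM in S127A, below every WT library (−3.58 log2 units, standard error 0.096, adjusted p = 2.98e-11). PKP3 was at 0 in every WT library but read 1.09, 1.17 and 0.95 TPM in S127A, under the mean needed for a test. PKP1 did not exceed 0.08 TPM. The desmosome partners of these proteins that were listed were nearly absent. Of 11 other desmosome genes 10 appear in the table, and the desmocollin DSC2 does not, so its level is unknown. Of those listed 0 had a mean of 1 TPM, and their summed level was 0.62 to 0.86 TPM in WT and 0.36 to 0.56 TPM in S127A. The desmogleins DSG2 and DSG4 and the desmocollin DSC3 were listed at 0 in all 6 libraries, and desmoplakin (DSP) did not exceed 0.08 TPM. PKP2 was therefore measured at 16.3 to 17.4 TPM in WT libraries with almost no transcript of the listed desmosomal cadherins, while DSC2 was not measured.

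**Figure D4:**
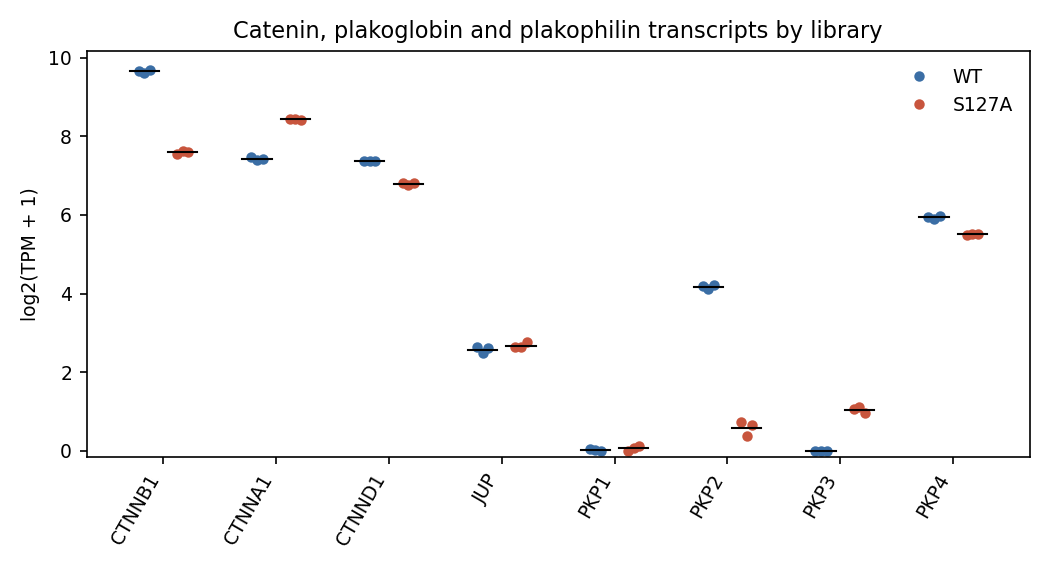
Levels of beta-catenin, 2 members of the catenin families, plakoglobin and the plakophilins as log2(TPM + 1) in each library, with group means as lines. CTNNB1 lies above CTNNA1 in WT and below it in S127A, JUP overlaps between the groups, and PKP2 is near 4 in WT and below 1 in S127A.

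Of 12 non-clustered protocadherins, 6 could be tested, and 4 rose and 2 fell, where 90.0% of all tested genes passed. PCDH19, PCDH18, PCDH10, PCDH7 and PCDH17 reached the mean needed for a test only through the group where they were high. The count therefore supports nothing further. PCDH1 (ENSMUSG00000051375.15, chromosome 18, 38185914 to 38212053, minus strand), a protocadherin of airway epithelium, read 2.69, 3.24 and 2.74 TPM in WT and 40.1, 41.5 and 45.4 TPM in S127A (3.48 log2 units, standard error 0.0724, limma adjusted p = 3.72e-12). PCDH19 (ENSMUSG00000051323.16, chromosome X, 133582860 to 133688987, minus strand), the protocadherin mutated in an X-linked female epilepsy, read 0.53, 0.52 and 0.35 TPM in WT. In S127A it read 29.5, 28.9 and 30 TPM (4.38 log2 units, standard error 0.0701, adjusted p = 4.84e-13). Both genes were thus low but above 0 in WT. PCDH18 and PCDH10, which both lie on chromosome 3, were each at 0.02 TPM or less in WT. PCDH18 (49743296 to 49757325, minus strand) read 9.10, 8.59 and 8.76 TPM in S127A (3.29 log2 units, adjusted p = 4.06e-12). PCDH10 (45378398 to 45435623, plus strand) read 2.82, 3.04 and 2.28 TPM there (1.88 log2 units, adjusted p = 5.16e-09).

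The 2 that fell were PCDH7 and PCDH17. PCDH7 (ENSMUSG00000029108.14, chromosome 5, 57717967 to 58133230, plus strand), known as a brain and heart protocadherin, read 14.0, 13.4 and 13.6 TPM in WT and 0.06, 0.04 and 0.02 TPM in S127A. It fell by 3.82 (SE 0.0667, limma adjusted p = 9.38e-13), and 21.1% of its exonic bases lie opposite an antisense transcript, so the 2 cannot be told apart if the counting did not use strand. PCDH17 (ENSMUSG00000035566.7, chromosome 14, 84443563 to 84539002, plus strand) read 3.47, 3.36 and 3.66 TPM in WT and 0, 0.02 and 0.02 TPM in S127A (−2.15 log2 units, adjusted p = 2.49e-10). PCDH9, also on chromosome 14 (93013410 to 93890679, minus strand), read 1.60, 1.55 and 1.35 TPM in WT and 0.15, 0.28 and 0.13 TPM in S127A, but its mean of 0.843 TPM lay below the filter. PCDH12, an endothelial protocadherin, went from 1.06 ± 0.22 to 0.0467 ± 0.0115 TPM and was also below it. PCDH8 and PCDH20 were listed at 0 in every library, and PCDH11X and PCDH15 did not exceed 0.06 TPM. The summed level of the 12 genes was 23.1 ± 0.462 TPM in WT and 83.6 ± 2.64 TPM in S127A.

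Promoters are shown for 4 members that were near 0 in 1 group and expressed in the other, to set the sequences of genes that rose beside one that fell. The stretches are the 250 bases before the RefSeq start on the strand of the gene (GRCm38.p6, the build called mm10), written 5′ to 3′, with CpG dinucleotides in capitals. Cdh26, Pcdh10 and Pcdh19 rose and Pcdh17 fell.
Cdh26, chr2:178430265-178430514, plus strand: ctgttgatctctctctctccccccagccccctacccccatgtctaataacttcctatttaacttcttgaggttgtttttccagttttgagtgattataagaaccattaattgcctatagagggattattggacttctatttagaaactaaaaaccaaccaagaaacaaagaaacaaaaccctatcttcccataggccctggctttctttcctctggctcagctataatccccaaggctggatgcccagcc
Pcdh10, chr3:45378148-45378397, plus strand: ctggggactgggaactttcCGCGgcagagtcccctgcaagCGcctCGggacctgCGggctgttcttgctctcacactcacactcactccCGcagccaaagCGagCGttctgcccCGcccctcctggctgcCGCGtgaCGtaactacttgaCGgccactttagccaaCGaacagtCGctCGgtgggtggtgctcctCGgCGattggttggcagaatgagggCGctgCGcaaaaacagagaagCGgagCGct
Pcdh19, chrX:133688994-133689243, minus strand: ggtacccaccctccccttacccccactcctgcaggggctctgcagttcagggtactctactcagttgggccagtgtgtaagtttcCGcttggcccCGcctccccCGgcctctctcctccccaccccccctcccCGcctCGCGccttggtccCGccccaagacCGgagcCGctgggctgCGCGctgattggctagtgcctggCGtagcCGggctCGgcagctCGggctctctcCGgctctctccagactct
Pcdh17, chr14:84443313-84443562, plus strand: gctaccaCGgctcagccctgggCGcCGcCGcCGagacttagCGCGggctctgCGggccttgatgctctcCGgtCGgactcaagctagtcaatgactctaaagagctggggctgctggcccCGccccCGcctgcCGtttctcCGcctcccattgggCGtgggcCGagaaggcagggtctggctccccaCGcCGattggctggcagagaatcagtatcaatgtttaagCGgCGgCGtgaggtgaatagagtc

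These windows differed widely in CpG content within the genes that rose. The Cdh26 window held 0 CpG, as did 7.87% of all 32851 windows of that length. The windows of Pcdh10 and Pcdh19 held 22 and 16 CpG, against a median of 6 over all windows, and that of Pcdh17 held 21. Among the windows not shown, that of Pcdh7, which also fell, held 7 CpG, and those of Pcdh18 and Cdh24, which rose, held 23 and 22. CpG content thus did not separate Pcdh17 and Pcdh7 from the genes that rose. The RefSeq start of Pcdh7 lies 114 bases after its GENCODE start, so part of its window lies inside the annotated gene. Of the 17 members that changed at least 2-fold, 7 had a window that was searched. Those on chromosome 18 (PCDH1, PCDHGB2, PCDHGB7, PCDHGC3, PCDHB8 and PCDHB15) were left out of the search by choice, so their windows are not described. Motifs were searched as letters on both strands. The AP-1 letters TGANTCA were in 6.75% of all windows and the TEAD letters GGAATG in 12.6%. Of the E-boxes, the form CAGGTG bound by Snail and ZEB factors was in 17.2% of windows, the form CACGTG in 6.02% and the form CATGTG in 12.3%. The TATA letters TATAAA were in 12.4%. Each of these 6 motifs was in 0 of the 7 member windows. The letters CCAAT, searched after the sequences had been seen, occurred in 5 of the 7 windows (Cdh26, Pcdh10, Pcdh17, Pcdh18 and Pcdh19) and in 33.8% of all windows.

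The gamma protocadherin cluster had sums of a similar size in both groups, but a different gene supplied most of each. The 21 listed gamma genes together made 99.8 ± 3.81 TPM in WT libraries and 113 ± 0.696 TPM in S127A libraries. PCDHGB2 (ENSMUSG00000102748.1, chromosome 18, 37689828 to 37841873, plus strand) read 70.3, 73.3 and 74.8 TPM in WT and 4.89, 4.21 and 4.11 TPM in S127A. It fell by 3.77 (SE 0.0625, limma adjusted p = 6.16e-13). PCDHGC3 (ENSMUSG00000102918.1, chromosome 18, 37806364 to 37841873, plus strand), one of the C-type genes that stand apart from the A and B genes of the cluster, read 0.36, 0.69 and 0.40 TPM in WT. It read 75.1, 78.5 and 76.1 TPM in S127A (5.72 log2 units, standard error 0.0823, adjusted p = 2.34e-13), the largest rise among the members on this scale. By the fold of means, 158 for PCDHGC3, larger rises were those of CDH26 (1374), PCDH18, CDH13 and PCDH10, all near 0 in WT. PCDHGB2 thus held 72.9% ± 1.16 of the gamma sum in WT and 3.89% ± 0.372 in S127A, and PCDHGC3 0.482% ± 0.167 and 67.7% ± 1.92.

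**Figure D5:**
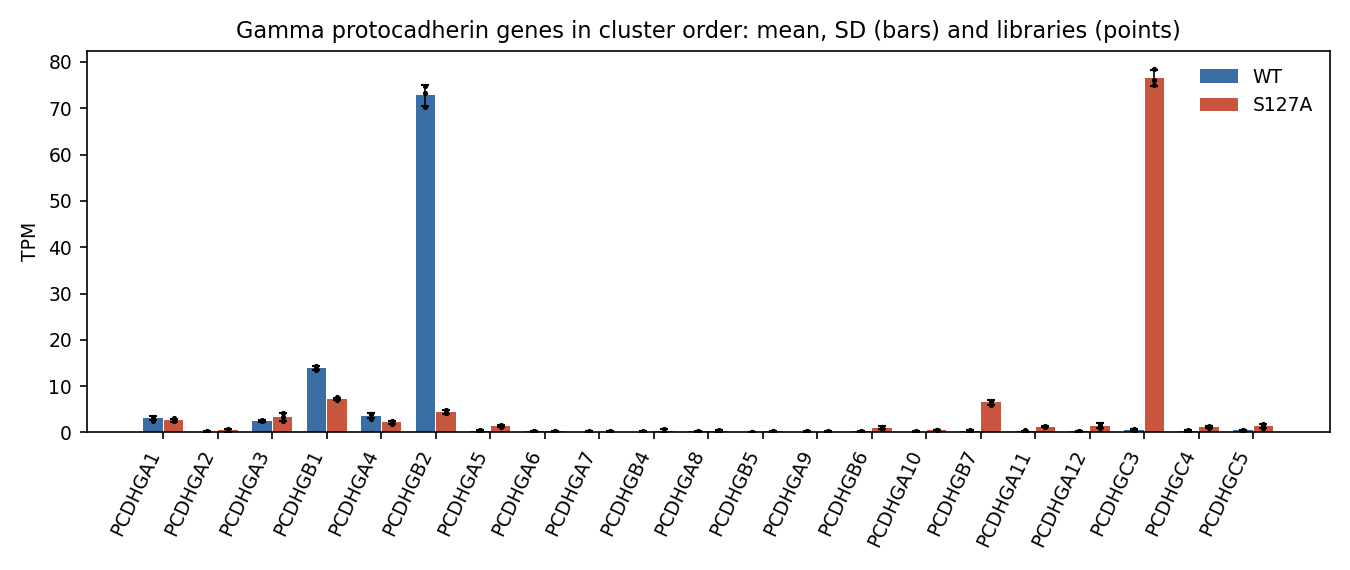
Level (TPM, linear axis) of the 21 listed gamma protocadherin genes in their order along the cluster, as group mean with SD and each library as a point. PCDHGB2 near 73 TPM dominates in WT (blue) and PCDHGC3 near 77 TPM in S127A (red).

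The 7 genes from PCDHGA10 to the end of the cluster (PCDHGA10, PCDHGB7, PCDHGA11, PCDHGA12, PCDHGC3, PCDHGC4 and PCDHGC5) were higher in S127A in 7 of 7 cases with no overlap between the groups, from a sum of 2.18 TPM to 88.96 TPM. Groups that did not overlap made up 90.2% of all tested genes, a share that was not computed for genes below the filter. Of the 14 earlier gamma genes 10 also had a higher mean in S127A. This stretch was picked after the values were seen, and only PCDHGB7 and PCDHGC3 in it could be tested. PCDHGB7 read 0.23, 0.51 and 0.18 TPM in WT and 6.84, 5.95 and 6.76 TPM in S127A (2.53 log2 units, limma adjusted p = 9.99e-10). Of the 14 genes before PCDHGA10, 3 were lower without overlap, 2 were higher without overlap (PCDHGA5 and PCDHGB6, neither tested) and 9 overlapped. The 3 lower genes were PCDHGB1 (13.9 ± 0.456 to 7.24 ± 0.297 TPM), PCDHGA4 (3.62 ± 0.582 to 2.16 ± 0.415 TPM) and PCDHGB2. PCDHGA4 fell by 0.55 (adjusted p = 0.00111) but quantile normalization left it short of the threshold (−0.19, adjusted p = 0.147).

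PCDHGA1 did not pass (3.04 ± 0.444 and 2.68 ± 0.331 TPM, adjusted p = 0.226), and its sign turned with quantile normalization (0.22). PCDHGA3 passed narrowly (2.49 ± 0.162 and 3.33 ± 0.808 TPM, log2 change 0.29, limma adjusted p = 0.0389) although its groups overlapped. It lost the call without S127A replicate 1 (0.16, adjusted p = 0.162) and in 6 other alternatives. Because the gamma genes share their constant exons, 38.5% of the exonic bases of PCDHGC3 and 43.4% of those of PCDHGB2 are annotated in other genes of the same strand. The sources used here do not give how the authors' counting divided reads from those exons, so the values of single gamma genes are uncertain. In addition 28.4% of the exonic bases of PCDHGC3 and 55.2% of those of PCDHGA10 lie opposite another transcript.

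Beta protocadherins, which are single-exon genes, changed in both directions. Of 12 listed, 5 could be tested, and 2 rose, 2 fell and 1 did not pass, where 90.0% of all tested genes passed. PCDHB8, the most abundant in WT, read 7.06, 7.44 and 7.61 TPM in WT and 2.45, 1.90 and 1.38 TPM in S127A, a fall of 1.54 (SE 0.117, limma adjusted p = 2.30e-07). PCDHB15 read 1.10, 1.10 and 1.18 TPM in WT and 4.11, 3.50 and 3.73 TPM in S127A, a log2 change of 1.17 (SE 0.0761, adjusted p = 5.98e-08). In S127A PCDHB15 was thus the highest of the beta genes, and neither gene overlapped between the groups. PCDHB7 fell from 1.67 ± 0.415 to 0.44 ± 0.0557 TPM and PCDHB11 rose from 1.03 ± 0.195 to 1.64 ± 0.195 TPM. PCDHB16 did not pass (2.67 ± 0.375 and 2.52 ± 0.367 TPM, adjusted p = 0.583), with a sign that turned with TMM factors and quantile normalization, and it passed as higher with the latter (0.31, limma adjusted p = 0.0172). The summed level of the beta genes was 15.8 ± 0.687 TPM in WT and 12.4 ± 0.744 TPM in S127A. The 10 listed alpha protocadherins were nearly silent, with sums of at most 0.34 TPM in any library. The table writes symbols in upper case, and the numbers of clustered protocadherins do not always name the same gene in human and mouse, so the mouse gene behind a clustered symbol is taken from the symbol alone.

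Of the FAT cadherins, giant atypical cadherins that act in planar polarity and growth control, FAT1 alone could be tested. FAT1 (ENSMUSG00000070047.14, chromosome 8, 44935447 to 45052257, plus strand) read 49.96, 52.2 and 50.8 TPM in WT and 74.1, 74.4 and 77.0 TPM in S127A. It was higher in every S127A library, with a log2 change of 0.55 (SE 0.0357, limma adjusted p = 5.54e-08). FAT2 went from 0.553 ± 0.0289 to 0.12 ± 0.01 TPM, and FAT3 and FAT4 did not exceed 0.05 TPM in any library.

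Among junction partners of the cadherin complex 13 of 18 were listed and tested, and 5 were higher, 7 lower and 1 did not pass, with a median log2 difference of −0.15. Over all tested genes 90.0% passed and the median was −0.12, so the list is close to the background, and its median turned with quantile normalization (0.01). Of these calls VASP was lost with TMM factors (limma adjusted p = 0.392), VCL passed as higher there (adjusted p = 0.0405), and ACTN4 was lost without a trend (adjusted p = 0.0748) and without WT replicate 3, S127A replicate 2 or S127A replicate 3 (adjusted p = 0.0721, 0.0573 and 0.0777). Beside beta-catenin, the genes with the smallest adjusted p were ENAH, PLEKHA7 and LIMA1, which all fell. ENAH, an actin polymerase of the Ena/VASP family, read 61.0, 59.3 and 56.9 TPM in WT and 7.86, 8.11 and 8.04 TPM in S127A (−2.74 log2 units). PLEKHA7, which binds p120-catenin at the epithelial junction, read 13.3, 12.7 and 13.4 TPM in WT and 0.30, 0.16 and 0.29 TPM in S127A (−3.50 log2 units). LIMA1, an actin-bundling protein that binds alpha-catenin, fell from 113 ± 1.04 to 43.6 ± 0.364 TPM. A further list held 15 genes, of the cadherin superfamily except for FJX1, of which 14 were listed and 5 tested. Of those 1 was higher and 4 lower, with a median log2 difference of −2.05, the value of FJX1 itself. CDHR4, CELSR2 and FJX1 reached the mean needed for a test only through WT, so the count and the median support nothing further. CDHR4 fell from 33.6 ± 1.52 to 0.0333 ± 0.0289 TPM, and CELSR2, a planar polarity cadherin, from 6.69 ± 0.142 to 0.0833 ± 0.0153 TPM. FJX1, a relative of the kinase that acts on FAT and Dachsous cadherins, read 3.15 ± 0.249 TPM in WT and was listed at 0 in the 3 S127A libraries. The calsyntenin CLSTN1 rose from 67.3 ± 2.37 to 144 ± 2.79 TPM.

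Transcription factors known to act on cadherin genes were mostly higher in S127A. All 13 were listed and 10 tested, 7 higher and 3 lower, with a median log2 difference of 3.29 against −0.12 over all tested genes, of which 90.0% passed and 40.2% were higher. TWIST1, TWIST2, ZEB1, SNAI1 and GRHL1 reached the mean needed for a test only through S127A, so the count and the median support nothing further. TWIST1 read 0.15, 0.07 and 0.08 TPM in WT and 73.3, 73.1 and 75.2 TPM in S127A (6.09 log2 units, limma adjusted p = 1.98e-14). TWIST2 rose from 0.06 ± 0.104 to 40.7 ± 1.97 TPM, ZEB1 from 0.103 ± 0.0289 to 18.5 ± 0.493 TPM and KLF4 from 1.88 ± 0.335 to 94.2 ± 3.82 TPM. SNAI1 (0.0733 ± 0.0751 to 16.5 ± 2.29 TPM) and SNAI2 (6.25 ± 0.657 to 41.5 ± 2.32 TPM), chosen with their values in view, also rose. Known repressors of CDH1 were among the genes that rose, such as ZEB1, and among those that fell, such as ZEB2. CDH1 was near 0 in both groups. The 3 lower genes were ZEB2 (53.6 ± 1.61 to 29.7 ± 0.695 TPM), TCF3 and TCF4, also named after their values were seen.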

How the data were processed

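RNA-seq was made from 3 WT and 3 ZBTB5-S127A B16F10 samples, grouped and numbered by their titles. Per the labels' protocols, TRIzol RNA was reverse transcribed with random hexamers and sequenced at BGI. The authors deposited TPM per gene, per the file headers, and the submitters' processing notes name mm10 as the build. Aligner, quantifier, annotation and strand setting: not given in the sources used here. In each column part of the TPM total was outside the table, namely 13.6% in WT and 16.8% in S127A. Depth is unknown, and errors come from the spread between libraries.

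The filter kept genes whose TPM averaged at least 1 over the 6 libraries. After adding a pseudocount of 1 and taking log2, limma 3.58.1 (R 4.3.3) compared the groups two-sided, through lmFit and a trended eBayes. P-values were adjusted by Benjamini-Hochberg over 10348 genes at 0.05. The fit was tested on simulated data. Of the 92 members 90 matched a GENCODE M21 gene (mm10) by symbol in upper case, and PCDHA10 and PCDHA13 did not. Promoters are from RefSeq (GRCm38.p6). Summaries and figures used Python 3.11.15, pandas 2.3.3 and matplotlib 3.10.9.

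Members and gene lists were chosen with earlier results of these data known. Every tested member could be named, with each library's value for changes of at least 2-fold. Untested members were named from a group mean of 0.5 TPM, and each related list gave up to 4 genes of smallest adjusted p. Members outside this rule, and list genes said to be named after their values were seen, are given for completeness. Alternatives changed the pseudocount (0.1 or 5), the filter (none, or an average of 5 TPM), the scaling (TMM factors, quantiles or a common total) and the variance model (no trend or robust hyperparameters), added a replicate block, or left out 1 library.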

Additional observations from a re-analysis of the deposited data

How the results depend on the processing

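Of the 30 tested members, 25 kept their direction and their side of the threshold in every alternative that tested them, and JUP, PCDHGA1, PCDHGA3, PCDHGA4 and PCDHB16 did not. The number of members that passed depended on the filter, since it sets which members are tested: 41 of 86 passed without a filter (24 higher) and 16 of 17 at a mean of at least 5 TPM (8 higher), against 27 of 30. The 41 include 15 members below the mean of 1 TPM. Over the fits that left out 1 library, 26 to 28 members passed. The sign of PCDHGA1 turned with quantile normalization (0.22). That of PCDHB16 turned with TMM factors (0.0267) and quantile normalization (0.31), and it ranged from −0.1354 to 0.029 over the fits without 1 library. Among the related genes, VCL turned with TMM factors (0.0872), quantile normalization (0.0474) and a common total (0.0217), VASP with quantile normalization (0.0147), and RAC1 ranged from −0.0153 to 0.0493 over the fits without 1 library. The cause was not tested.

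The labels do not say whether the replicate numbers pair the samples. Same-numbered WT and S127A libraries correlated in their deviations from the group means at r = 0.12, 0.02 and 0.03. Differently numbered ones correlated at r = −0.08 to 0.05. With so few libraries these values cannot settle whether the samples were paired. The replicate block left 27 members and 9339 of all genes passing, against 27 and 9315 without it, and changed no member's call. Depth cannot be read from TPM, and members near 0 may be limited by it.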

Other observations

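Genes of cadherin processing and turnover, a list chosen with earlier results known, were mostly lower in S127A. Of 17 genes 16 were listed and tested, 12 lower, 3 higher and 1 not passing, with a median log2 difference of −0.29 against −0.12 over all tested genes, of which 90.0% passed and 49.8% were lower. The share of tested genes that passed is thus close to the background. PSEN2, a catalytic subunit of gamma-secretase, which cuts cadherin stubs in the membrane, fell from 176 ± 8.92 to 10.6 ± 0.677 TPM. The sheddase ADAM10, which cleaves the ectodomains of E- and N-cadherin, fell from 81.5 ± 3.79 to 35.6 ± 0.851 TPM, the protease MMP14 from 159 ± 2.66 to 68.3 ± 0.40 TPM and the gamma-secretase subunit NCSTN from 110 ± 1.77 to 50.2 ± 0.457 TPM. The calls of FURIN, RHOA, PSENEN and RAB11A were lost with TMM factors (limma adjusted p = 0.827, 0.445, 0.217 and 0.102), and RAC1, the gene that did not pass, became higher there (0.13, adjusted p = 0.00709). Quantile normalization also made RAC1 higher (0.11, limma adjusted p = 0.0206). With TMM factors the list held 8 lower and 4 higher genes. Of the calls in the list 33.3% were then higher, against 50.1% of the calls over all genes. Without that scaling these shares were 20% and 44.7%, so the direction of the list depended in part on the scaling.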
